A study of Rattus norvegicus with 6 samples.

Results

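The genes described here encode voltage-gated and related ion channels of the rat brain, and the question was whether their RNA differed between a pair of inbred strains. They were taken as every locus of the deposited transcriptome whose gene name begins with Kcn, Cacn, Scn, Hcn, Clcn, Trpc, Trpv, Trpm, Ano or Cng followed by the usual family letter or digit, or is Nalcn, with Kcnv1 left out. The rule found 70 of 24744 loci, of which 45 were potassium channel genes, 6 calcium channel genes, 4 sodium channel genes and 15 others (cation, chloride and TRP channels). One of the 70, Trpc4ap, matches by name only and encodes a protein that binds a TRP channel, so 69 were channel genes. The assembly used reads of polyA RNA from whole brains of 6 naive male rats, 3 of strain BN-Lx/CubPrin (BNLx, BNLx 1 to 3) and 3 of strain SHR/OlaIpcvPrin (SHR, SHR 1 to 3), 1 library per rat. Both are inbred strains, and the SHR is the spontaneously hypertensive rat. No treatment was given and the ages were not stated in the sources used here, so strain was the only group contrast.

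Gene names were present only for loci on part of the genome. No locus on chromosome 1 or on chromosomes 10 to 19 carried a name (11 chromosomes), so of 187 RefSeq protein-coding symbols that match the rule, 70 could be found and 117 could not, 82 of them on those chromosomes in RefSeq. Nalcn, the sodium leak channel, and the large pore subunits Scn1a, Scn2a and Scn3a were among those not analysed here. The channel set was therefore a sample of the family rather than the whole of it.

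Ion channels set the electrical behaviour of neurons. Voltage-gated sodium channels carry the rising phase of the action potential, voltage-gated potassium channels end it and set the firing rate, and calcium channels couple it to transmitter release and gene expression. Inward rectifier and tandem-pore potassium channels hold the resting potential, HCN channels carry a pacemaker current that opens on hyperpolarization, and TRPC channels admit cations downstream of receptors. Many of these pores work with accessory subunits that change their gating or their traffic to the membrane.

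Libraries BNLx 3 and SHR 1 stood apart from the other rats of their strains in brain region markers and in many channels, and the values without them are given after those of all 6 libraries. Total expected counts ran from 11747048 to 41333078 per library.

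Promoter sequence is shown for members that were low together in BNLx 3 and SHR 1, a pattern described further on. Of the 8 channel loci concerned, these 4 had exactly 1 promoter in the RefSeq table for build GRCr8, covering 250 bases before to 50 bases after the annotated start, 5′ to 3′. Capitals mark the GC box GGGCGG on either strand.
Kcnh7, chr3:68230622-68230921, minus strand: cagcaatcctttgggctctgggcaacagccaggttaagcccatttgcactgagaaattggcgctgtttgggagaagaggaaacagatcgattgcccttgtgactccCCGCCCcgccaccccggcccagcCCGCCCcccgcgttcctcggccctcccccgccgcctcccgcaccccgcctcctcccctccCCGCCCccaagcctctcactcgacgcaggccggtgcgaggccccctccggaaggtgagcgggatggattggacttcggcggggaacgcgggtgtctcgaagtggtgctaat
Kcns1, chr3:173262297-173262596, minus strand: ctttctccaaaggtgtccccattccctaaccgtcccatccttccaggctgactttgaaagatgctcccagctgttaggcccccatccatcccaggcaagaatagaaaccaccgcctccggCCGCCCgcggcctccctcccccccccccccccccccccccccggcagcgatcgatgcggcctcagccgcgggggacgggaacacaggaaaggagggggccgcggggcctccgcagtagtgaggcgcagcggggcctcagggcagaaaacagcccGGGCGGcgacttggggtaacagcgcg
Kcnmb4, chr7:54005052-54005351, minus strand: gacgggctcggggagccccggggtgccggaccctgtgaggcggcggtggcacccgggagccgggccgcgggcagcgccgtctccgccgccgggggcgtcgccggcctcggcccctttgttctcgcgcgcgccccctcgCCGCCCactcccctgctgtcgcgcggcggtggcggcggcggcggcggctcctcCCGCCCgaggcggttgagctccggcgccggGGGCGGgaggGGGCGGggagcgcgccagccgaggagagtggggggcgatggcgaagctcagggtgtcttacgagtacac
Trpc6, chr8:14043966-14044265, plus strand: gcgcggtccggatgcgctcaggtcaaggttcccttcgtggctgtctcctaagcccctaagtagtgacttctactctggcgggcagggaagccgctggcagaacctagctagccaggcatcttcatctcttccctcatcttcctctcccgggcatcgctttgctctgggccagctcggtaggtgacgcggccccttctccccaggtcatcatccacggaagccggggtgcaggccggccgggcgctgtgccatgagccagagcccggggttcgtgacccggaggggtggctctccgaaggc
The GC box was found 3 times in the Kcnh7 window, 2 times in Kcns1, 4 times in Kcnmb4 and 0 times in Trpc6, so these 4 windows did not share it. Among 33469 promoter windows of the same length, 33.1% held it on either strand, against 31 of the 60 windows (51.7%) listed for 49 of the channel genes. The TATA box TATAAA was in none of the 4 windows and the cyclic AMP response element TGACGTCA in none, against 14.2% and 1.83% of all windows. The 4 windows were GC-rich, at 67.3%, 69.0%, 80.7% and 65.3%, where the median window of all promoters had 51.7% and that of the channel genes 61.7%. The starts are those of RefSeq and need not be the starts of the transcripts assembled here.

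Levels are given in TPM, the share of a library's transcripts, which divides by transcript length and so allows genes to be compared. Across the 70 loci the mean TPM of the 6 libraries ran from 0.418 to 244 with a median of 25.5, and the 14471 loci tested in all had a median of 20.6. By group the median of the mean level was 21.0 TPM for potassium, 67.8 for calcium, 89.1 for sodium and 18.9 for other channels. The sodium and calcium groups were small and consisted mainly of accessory subunits.

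Some of the highest values were not levels of a channel alone, because the assembly had joined 8 channel genes to a neighbouring gene in 1 locus. The Kcnc4 locus led the set at 244 TPM, but 85.9% of its counts lay on isoforms named for the neighbour Slc6a17 and 14% on those named for Kcnc4. The Kcnj4 locus at 130.0 TPM held 5.29% on isoforms assigned to Kcnj4 and 46.2% on those assigned to Csnk1e. Its remaining 48.5% lay on isoforms that could not be assigned to either gene, so the share of Kcnj4 itself was not settled. In the Cacnb4 locus 70.8% of the counts were on Cacnb4 isoforms. The other joined loci were Kcnf1 (93.6% on the channel), Kcnh3 (99.8%), Kcnq5 and Trpm2 (each 100%) and Trpc4 (50.9%, the rest on Postn). The joined loci were named after their values were seen.

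Among potassium channel loci that held only the channel, Kcnab2, a cytoplasmic beta subunit of Kv1 channels, had the highest level. Its values were 193, 186 and 172 TPM in BNLx 1 to 3 and 125, 253 and 266 TPM in SHR 1 to 3. The BNLx libraries lay inside the SHR range, which was set by SHR 1. Below it stood, among others, Kcnmb4 at 80.9 TPM, the brain beta subunit of BK channels, Kcnip3 at 80.6 TPM, a calcium-binding partner of Kv4 channels, and Kcna1 at 70.0 TPM, an axonal Kv1 pore. Kcnmb4 and Kcnip3 differed by far less than their spread over libraries, from 43.4 to 104 TPM and from 19.6 to 125 TPM. At the low end were Kcnk15 at 0.418 TPM and Kcnh8 at 0.887 TPM, which with Kcne4 and Kcne5 did not reach the count filter and were not tested.

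Of the calcium channel loci, Cacnb3, an intracellular beta subunit, had the highest level at 180.0 TPM, and the L-type pore Cacna1c had the lowest at 14.8 TPM. The alpha2delta subunits, which carry the pore to the surface and bind gabapentin, stood at 72.0 TPM for Cacna2d2 and 63.5 TPM for Cacna2d1, and the AMPA receptor partner Cacng2 at 49.3 TPM. Among sodium channel loci the beta subunit Scn2b was first at 155 TPM, followed by Scn3b at 98.7, the pore Scn8a (Nav1.6, the channel of the axon initial segment) at 79.4 and Scn4b at 59.6 TPM. In the remaining group the named channels of highest level were the endosomal chloride transporters Clcn6 at 62.5 and Clcn4 at 59.2 TPM, then Ano3 at 36.3 and Ano10 at 32.4 TPM, while Trpc4ap stood at 95.8 TPM. The pacemaker channel subunits Hcn3 and Hcn4 were lower, at 15.5 and 6.48 TPM.

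**Figure D1:**
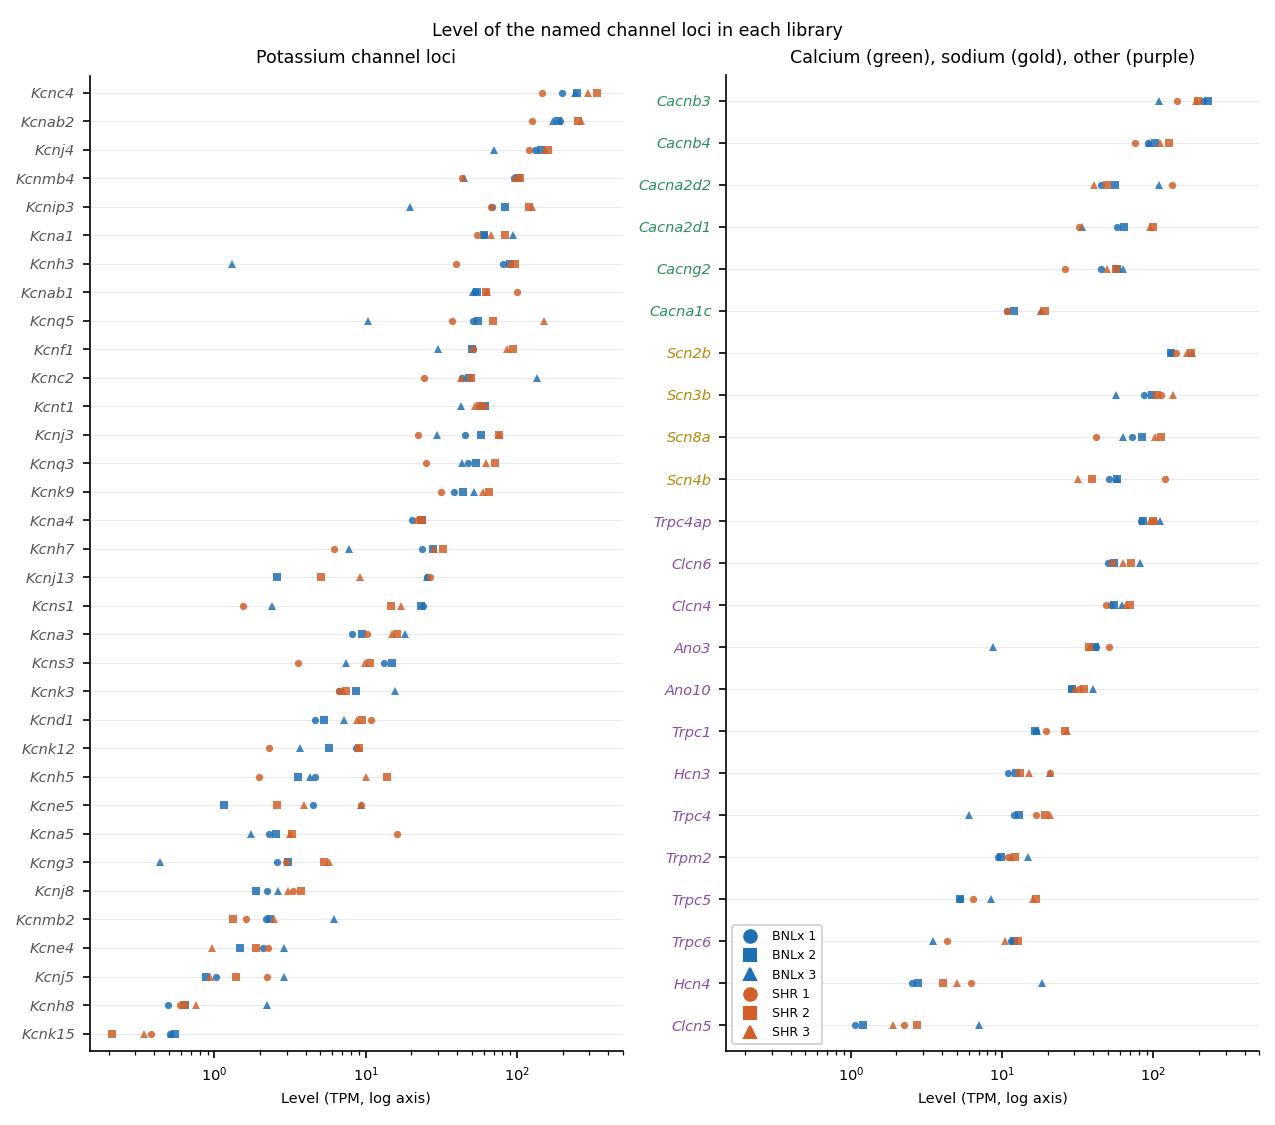
Level of 57 of the 70 channel loci, those named in the text, in TPM (log axis), 1 marker per library, BNLx in blue and SHR in orange, with potassium channels on the left and the other groups on the right, ordered by mean level within a group. The loci run from Kcnk15 at a mean of 0.418 TPM to the joined locus Kcnc4 at 244 TPM, and BNLx 3 or SHR 1 is often the marker farthest from the rest, as for Kcnh3 and Kcns1.

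No channel locus differed between the strains at the level of the whole gene by edgeR's quasi-likelihood test with Benjamini-Hochberg adjustment over all loci. The count was 0 of 66 at an adjusted p of 0.05, where 147 of the 14471 loci tested (1.02%) were called. At an unadjusted p of 0.05 there were 3 channel loci (Kcnd1, Trpc1 and Trpc5) of 66, or 4.55%, below the 10.2% of all loci. DESeq2 called 1 channel locus, Kcnd1, against 3.75% of all loci. The 3 values from BNLx and the 3 from SHR did not overlap for 9 of 66 channel loci (13.6%), below the 17.4% of all loci, and Kcna5, Kcnab1, Kcnc2, Kcnd1, Kcnj8, Kcnk3, Scn3b and Trpc1 were among them. Of the 66, 41 had a fitted fold change above 0 and 25 below, with a median log2 fold change (SHR over BNLx) of 0.05, where all loci had 7244 above, 7227 below and a median of 0.0. On TPM the split of the channel loci was 49 above and 17 below, with all loci shifted up by 0.074.

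The precision of the channels was lower than that of other loci. The median standard error of the log2 fold change was 0.351 for channel loci and 0.204 for all loci tested, whereas the median absolute log2 fold change was 0.204 and 0.181. Fewer cells of a type and less RNA per cell cannot be told apart in these bulk libraries.

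Kcnd1, on the X chromosome at 15506724 to 15522476 (rn6, minus strand), encodes Kv4.1, a pore of the fast inactivating A-type current. Its CPM (counts scaled to library size, with TMM factors) were 9.97, 11.4 and 13.9 in BNLx and 21.9, 18.1 and 17.3 in SHR. Every SHR library lay above every BNLx library, with means of 11.8 ± 2.00 and 19.1 ± 2.44 (SD, n = 3 each). The log2 fold change was 0.70 with a standard error of 0.18 and an edgeR adjusted p of 0.245, and DESeq2 gave an adjusted p of 0.0375 for the same values.

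Of the TRPC family no locus passed the test, and the median log2 fold change of the 5 Trpc loci, Trpc4ap included, was 0.43. Trpc1, a widely expressed subunit, had 30.5, 28.4 and 24.3 CPM in BNLx and 33.2, 38.2 and 40.8 CPM in SHR, a log2 fold change of 0.43 with a standard error of 0.14 and an edgeR adjusted p of 0.347. Trpc5 had 13.2, 12.4 and 17.5 CPM in BNLx and 14.7, 31 and 32.4 CPM in SHR, with a log2 fold change of 0.85, a standard error of 0.33 and an edgeR adjusted p of 0.454. SHR 2 and SHR 3 were high for Trpc5, and SHR 1 lay among the BNLx libraries. Trpc4 gave 0.73 but shares its locus with Postn, while Trpc6 gave 0.00 and Trpc4ap 0.01.

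The largest fitted differences went with single libraries. Kcna5, a Kv1 pore, had the largest one in the set, a log2 fold change of 1.76 with a standard error of 0.75, from 2.88, 3.05 and 1.77 CPM in BNLx and 19.0, 3.51 and 3.53 CPM in SHR. SHR 1 alone was 5.40 times the mean of the other SHR libraries, which were just above BNLx, and without BNLx 3 and SHR 1 the value was 0.25. Kcnc2 (Kv3.2, which lets interneurons fire fast) gave -1.08 with a standard error of 0.50 from 112, 117 and 338 CPM in BNLx and 58.9, 110.0 and 99.6 CPM in SHR. Here BNLx 3 was 2.95 times its strain's other libraries, and without it and SHR 1 the value was -0.12. Kcnmb2, a BK beta subunit, gave -1.01 with a standard error of 0.47, and its values of 2.91, 2.96 and 7.24 CPM in BNLx and 2.02, 1.52 and 2.93 CPM in SHR had BNLx 3 as the highest library.

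In the smaller groups no channel passed the test, and the leading values were modest. In the calcium group the fitted log2 fold changes ran from -0.44 with a standard error of 0.25 for Cacng2 to 0.34 with a standard error of 0.44 for Cacna2d1, with 0.15 for Cacna1c between them. In the sodium group Scn3b had 0.50 with a standard error of 0.24, Scn4b 0.15 with 0.53 and Scn8a 0.13 with 0.35. Scn2b was nearly level at 287, 278 and 356 CPM in BNLx and 294, 294 and 291 CPM in SHR. In the remaining group the largest after Trpc5 and the joined Trpc4 locus were Hcn4 at -0.62 with a standard error of 0.76 and Clcn5 at -0.47 with 0.72.

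**Figure D2:**
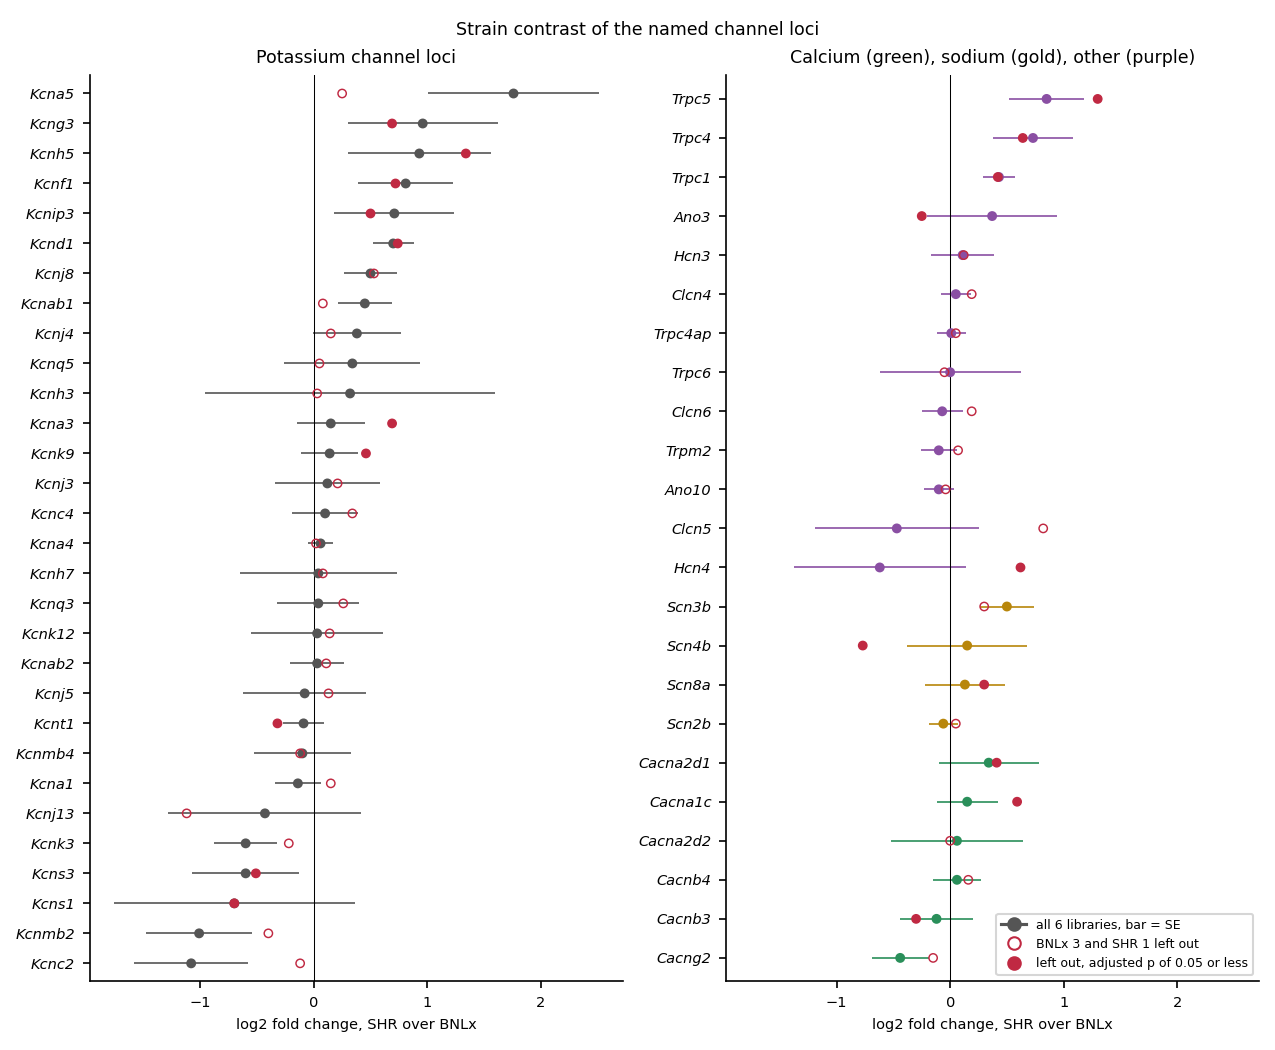
Fitted log2 fold change (SHR over BNLx) of 53 of the 66 tested channel loci, those named in the text, with its standard error (filled points and bars), and the same from BNLx 1 and 2 against SHR 2 and 3 (red circles, filled where the edgeR adjusted p was at or below 0.05). No locus was called with all 6 libraries, and 20 of those shown were called with BNLx 3 and SHR 1 left out, among them Trpc5 at 1.3.

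At the level of single isoforms, 1 of 160 tested channel isoforms was called at an unadjusted p of 0.001, the threshold of the study, where 324 of 32348 isoforms (1.00%) were called. It was isoform STRG.30645.4 of Scn3b, which encodes the beta3 subunit, an auxiliary protein that modulates the gating of sodium channels. The isoform had 9.0, 8.53 and 7.40 CPM in BNLx and 24.3, 25.6 and 28.9 CPM in SHR. Each strain's 3 libraries lay close together and the strains were well apart, with means of 8.31 ± 0.825 and 26.3 ± 2.35 (SD, n = 3). The log2 fold change was 1.66 with a standard error of 0.18, an unadjusted p of 9.86e-05 and an edgeR adjusted p of 0.0332.

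This Scn3b isoform has an unusual structure. It lies on the plus strand of chromosome 8 from 44136496 to 44165369 (rn6), with 5 exons and 13265 bases. The common isoform STRG.30645.1 has 7 exons, and the called isoform lacks its exon from 44145419 to 44145582. Held as exon is the sequence between common exons ending at 44136845 and beginning at 44137209, and between those ending at 44147822 and beginning at 44150668. The called isoform reaches 6359 bases beyond the common 3′ end at 44159010. Its own exons break between 44158680 and 44158705, inside the last exon of the common isoform. The origin of this break was not tested. The common isoform had 117, 120.0 and 68.4 CPM in BNLx and 150, 108 and 151 CPM in SHR, with overlapping strains and a log2 fold change of 0.42 with a standard error of 0.27. STRG.30645.6, which ends at the same distal site, had 25.5, 32.8 and 24.7 CPM in BNLx and 29.0, 28.6 and 35.1 CPM in SHR. The distal end as such overlapped between the strains, and the isoforms that used it took 20.5% ± 4.51 (SD, n = 3) of the BNLx counts of the locus and 22.3% ± 1.52 (SD, n = 3) of the SHR counts. The called isoform took 4.74% ± 1.02 of the isoform counts of Scn3b in BNLx and 10.3% ± 0.912 in SHR, and the whole locus had a log2 fold change of 0.50 that was not called.

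Summing each original isoform with the shortened or lengthened versions that aptardi (the tool that predicts polyA sites) had added gave the same single call. Of 139 summed channel transcripts 1 was called, the same Scn3b transcript at a log2 fold change of 1.66 and an unadjusted p of 6.35e-05, where 1.14% of all summed transcripts were called.

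**Figure D3:**
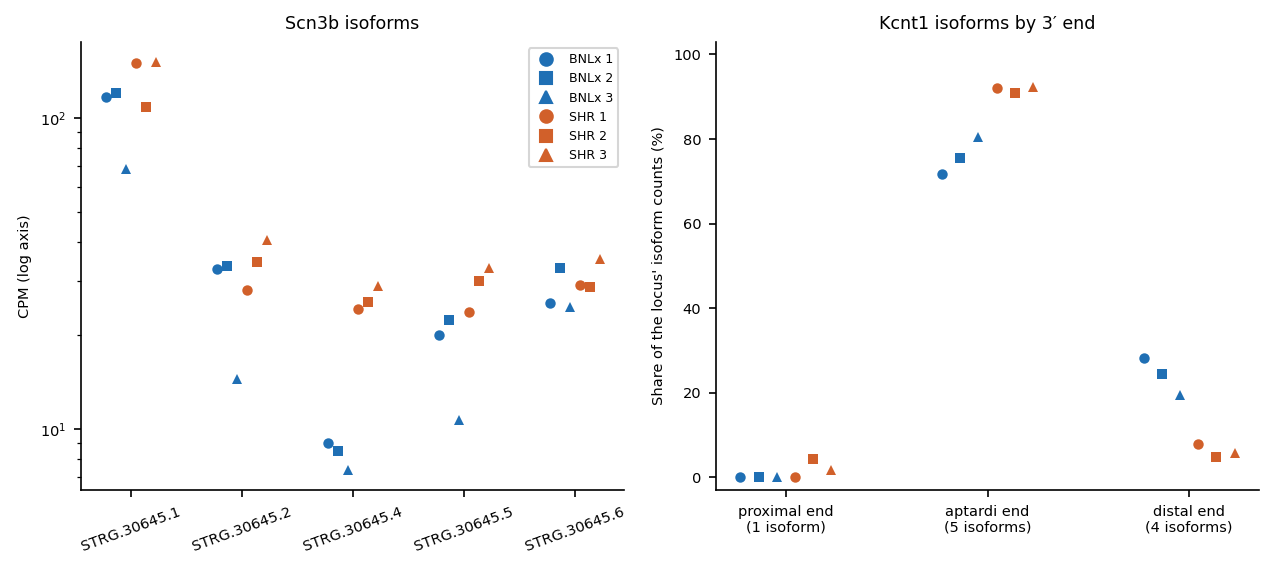
Left, CPM (log axis) of the 5 Scn3b isoforms with counts, by library; right, share of the isoform counts of Kcnt1 that end at each of 3 alternative 3′ ends, in percent, by library. Isoform STRG.30645.4 separates the strains, at 7.40 to 9.0 CPM against 24.3 to 28.9 CPM, and the distal end of Kcnt1 holds 19.6% to 28.3% in BNLx and 4.75% to 7.90% in SHR.

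The share of a locus taken by each of its isoforms was tested for 44 channel loci with at least 2 tested isoforms. None was called at an edgeR adjusted p of 0.05, where 4.37% of 7742 loci were called, and 5 (Cacna2d1, Kcna4, Kcnt1, Scn2b and Scn3b) had an unadjusted p under 0.05, or 11.4% against 13.5% of all loci. DESeq2 called 4 of 160 channel isoforms at the same unadjusted threshold, against 3.60% of all isoforms. These were Scn3b STRG.30645.4, Cacna2d1 STRG.16084.1 and Kcnt1 STRG.11975.3 and STRG.11975.5.

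Kcnt1 encodes Slack, a potassium channel opened by intracellular sodium, and it was chosen after its values were seen, since the use of its 3′ ends did not overlap between the strains. On the plus strand of chromosome 3 (rn6), 4 original isoforms end at 3365340 and 5 aptardi isoforms end at 3364438, 902 bases nearer the start. The distal end took 28.3%, 24.4% and 19.6% of the isoform counts in BNLx and 7.90%, 4.75% and 5.88% in SHR, or 24.1% ± 4.39 against 6.18% ± 1.59 (SD, n = 3). The aptardi end took 71.7%, 75.6% and 80.4% in BNLx and 92.1%, 90.9% and 92.4% in SHR. No BNLx library overlapped an SHR library at either end. That also held for ends of other channel loci, among them Cacnb3, Kcna1, Kcna4, Kcng3, Kcnh3, Kcnip3 and Kcnj4. In Kcng3 and Kcnh3 the minor end held very few counts. Its mean share was 0.0643% in BNLx and 0.671% in SHR for Kcng3, and 0.383% and 0.00106% for Kcnh3. The Kcnj4 shares were those of a locus that also held Csnk1e. Such ends were not counted over all loci.

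The distal isoforms of Kcnt1 were all lower in SHR by the fitted value. STRG.11975.3 had 20.9, 17.2 and 8.76 CPM in BNLx and 4.63, 2.41 and 2.11 CPM in SHR, a log2 fold change of -2.35 with an edgeR unadjusted p of 0.0031 that missed the threshold. STRG.11975.5 gave -2.35, STRG.11975.2 gave -1.81 and STRG.11975.4 gave -1.53, none of which reached the threshold. The shortened version of STRG.11975.3 gave 0.01, and the Kcnt1 locus as a whole gave -0.09 with a standard error of 0.18. Summed over its 3′ ends, STRG.11975.5 was also lower in SHR, at 38.4 ± 3.26 CPM in BNLx and 23.3 ± 2.87 CPM in SHR (SD, n = 3). Its log2 fold change was -0.72 with an edgeR unadjusted p of 0.00379, not called, while DESeq2 called this sum. The sums of STRG.11975.2, STRG.11975.3 and STRG.11975.4 gave 0.16, -0.27 and 0.36. The usage test of the locus had an unadjusted p of 0.0171 and an edgeR adjusted p of 0.197.

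Several isoforms had no counts in any BNLx library and none in SHR 1. Cacna2d1 STRG.16084.1, on chromosome 4, had 0 CPM in BNLx 1 to 3 and in SHR 1, 26.3 CPM in SHR 2 and 14.9 CPM in SHR 3. It shares 36 exons with the main isoform STRG.16084.2, ends 3443 bases short of it, and has the exon from 15730153 to 15730239 where the main isoform has that from 15729713 to 15729799. The main isoform had 269, 284 and 141 CPM in BNLx and 144, 333 and 353 CPM in SHR. So BNLx 3 and SHR 1 were the low libraries for the main isoform, and edgeR gave STRG.16084.1 an unadjusted p of 0.0487, above the threshold.

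Scn2b STRG.30831.3 showed the same pattern, with 10.9 and 8.89 CPM in SHR 2 and SHR 3 and 0 in the other libraries, and so did Kcnt1 STRG.11975.1 with 6.75 and 2.53 CPM. For Kcnt1 and Scn2b the zeros held for 1 of the 3′ ends only, since summed with their aptardi versions Kcnt1 STRG.11975.1 had means of 4.64 CPM in BNLx and 10.5 in SHR and Scn2b STRG.30831.3 had 0.572 and 10.4 CPM. With Cacna2d1 STRG.16084.1 these 3 of 160 channel isoforms (1.88%) were at 0 in all BNLx libraries and SHR 1 and above 0 in SHR 2 and SHR 3, where 0.396% of all isoforms were. A pair of further Scn2b isoforms, STRG.30831.1 and STRG.30831.2, had identical values in each library (146 CPM in BNLx 1), so their reads could not be told apart.

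A pair of libraries stood apart from the rest of their strains, BNLx 3 and SHR 1. The departures of the channel loci are given beside those of all loci. BNLx 3 was at least 2-fold below the mean of BNLx 1 and 2 for 16 of 66 channel loci (24.2%), where 7.93% of all loci were, and at least 2-fold above for 8 (12.1%), where 6.51% were. SHR 1 was at least 2-fold below the mean of SHR 2 and 3 for 19 (28.8%), against 6.81%, and above for 5 (7.58%), against 4.43%. The median absolute log2 departure was 0.782 for channels and 0.329 for all loci in BNLx 3, and 0.708 and 0.327 in SHR 1.

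Of the 66 tested channel loci, 8 were low in both libraries, 2 were high in both, and 0 were low in 1 and high in the other. These joint patterns were not counted over all loci. Among the 8 were Kcnh7, Kcns1, Kcnk12, Kcns3, Kcnmb4, Kcnh3 and Trpc6. Kcns1, an electrically silent subunit that modifies Kv2 channels, had 31.5, 29.3 and 2.69 CPM in BNLx and 1.88, 17.0 and 20.6 CPM in SHR. BNLx 3 was 11.3 times lower than its strain's other libraries and SHR 1 was 10 times lower.

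Kcnh3 (Kv12.2, a pore of forebrain neurons), chosen after its values were seen, went further in BNLx 3. It had 141, 146 and 0.701 CPM in BNLx and 66.9, 149 and 144 CPM in SHR, so BNLx 3 was 205 times lower than the mean of BNLx 1 and 2 and SHR 1 was 2.19 times lower than its strain's other libraries. Kcnh7 was 3.54 and 4.47 times lower, and Kcnmb4 2.40 and 2.16 times lower. The 2 high in both were Kcnj5, an inward rectifier gated by G proteins, at 2.77-fold and 2.01-fold, and Cacna2d2 at 2.67-fold and 2.87-fold.

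Other channels departed in 1 of the libraries. Hcn4, the pacemaker subunit that is abundant in thalamus, had 6.94, 7.32 and 44.7 CPM in BNLx and 16.2, 9.62 and 12.3 CPM in SHR, so BNLx 3 was 6.27-fold above its strain. Scn4b, a beta subunit abundant in striatal and fast-firing neurons, had 108, 117 and 108 CPM in BNLx and 239, 71.9 and 59.2 CPM in SHR, with SHR 1 at 3.65-fold. Ano3, an anoctamin, was 5.14 times lower and Kcng3, another silent subunit, 6.94 times lower in BNLx 3, while Kcnh5 was 5.63 times lower in SHR 1. These loci were listed for that departure, so the departing library lay outside the range of the other rats of its strain by selection.

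**Figure D4:**
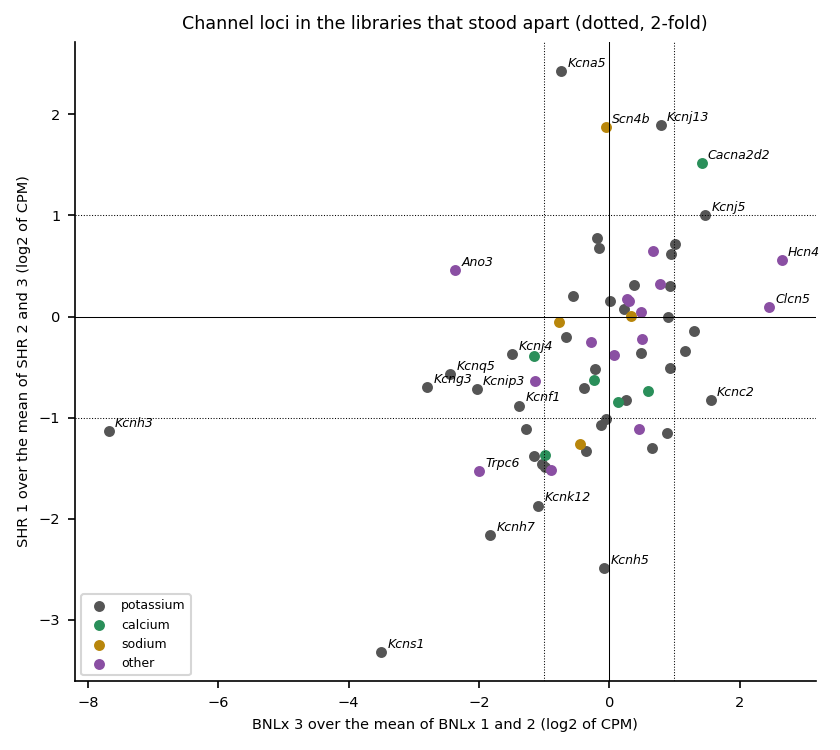
Each point is 1 of the 66 tested channel loci, with the log2 ratio of BNLx 3 to the mean of BNLx 1 and 2 on the x axis and of SHR 1 to the mean of SHR 2 and 3 on the y axis, coloured by channel group. The lower left quadrant beyond the dotted 2-fold lines holds the 8 loci low in both libraries, with Kcns1 the lowest on the y axis and Kcnh3 the lowest on the x axis.

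Markers of brain regions moved in the same libraries. The summed level of the cortical and hippocampal markers found (3 of 5 listed, Neurod6 and Nrgn among them) was 2835, 3112 and 184 TPM in BNLx 1 to 3 and 626, 2227 and 2240 TPM in SHR 1 to 3. The striatal markers (Drd2 and Penk, 2 of 6) summed to 217, 174 and 72.2 TPM in BNLx and 1022, 169 and 111 TPM in SHR. Most of this sum was Penk, in a locus with 3 gene names. Drd2 alone had 10.6, 10.6 and 10.1 TPM in BNLx and 67.5, 7.14 and 4.04 TPM in SHR. The only thalamic marker found, Lef1 (1 of 3), had 4.48, 4.87 and 64.4 TPM in BNLx and 3.97, 5.39 and 4.38 TPM in SHR. So BNLx 3 and SHR 1 were low in cortical markers, SHR 1 was high in striatal markers and BNLx 3 was high in Lef1, and the part of this in the channel values was not tested.

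General brain markers were present in every library, and some of their loci, Eno2 and Map2 among them, also held other named genes. Neuronal markers (5 of 10 found) summed to 3316 to 5896 TPM over the 6 libraries, astrocytic ones (3 of 7) to 948 to 1844, oligodendrocytic ones (3 of 6) to 1566 to 5558 and microglial ones (4 of 6) to 145 to 221 TPM. The single precursor marker Cspg4 (1 of 4) had 4.71 to 7.46 TPM, the cerebellar Calb1 (1 of 6) 98.9 to 141 and the ependymal pair (2 of 3) 4.07 to 23.9 TPM. None of the markers found was at 0 in any library, and no marker listed for endothelial cells, mural cells, pituitary, blood or olfactory bulb had a named locus.

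Kcnj13, an inward rectifier of the choroid plexus, was high and low in the same libraries as that tissue's marker, within both strains. It had 23.1, 3.14 and 22.6 CPM in BNLx and 23.5, 4.74 and 7.93 CPM in SHR, while Aqp1, the 1 of 6 choroid plexus markers found, had 12.6, 2.88 and 25.4 TPM in BNLx and 29.8, 5.0 and 6.30 TPM in SHR. BNLx 2, SHR 2 and SHR 3 were low for both genes. Kcnj13 was chosen after its values were seen.

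**Figure D5:**
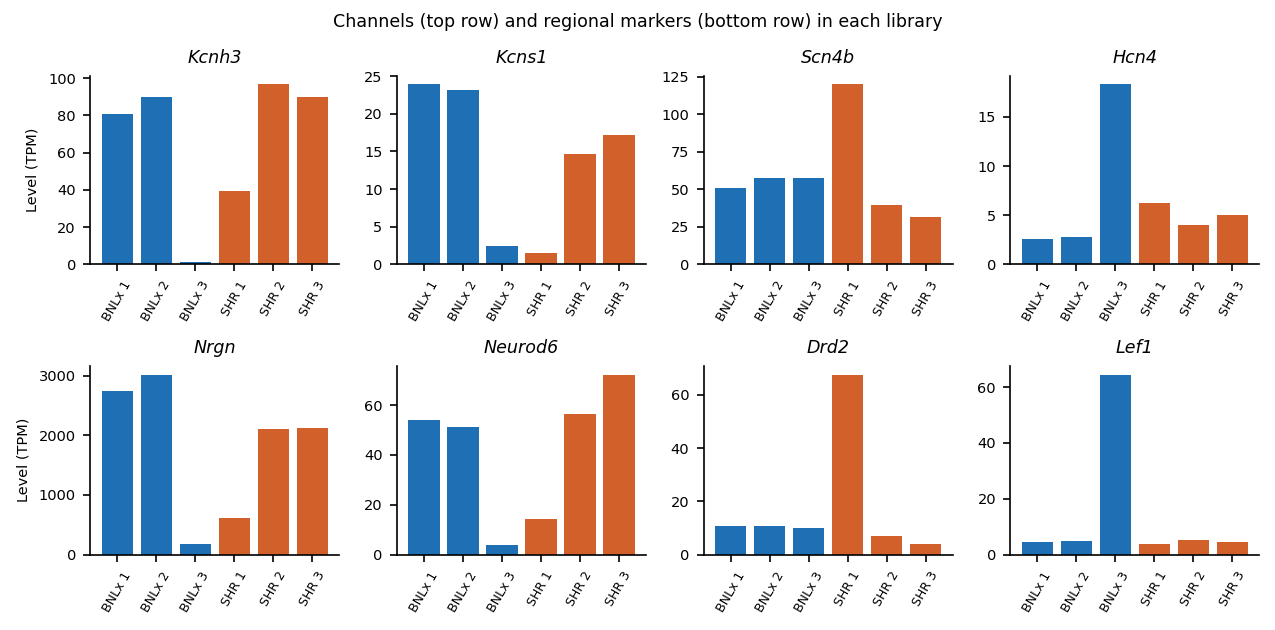
Level in TPM of 4 channels (top row: Kcnh3, Kcns1, Scn4b and Hcn4) and 4 regional markers (bottom row: Nrgn and Neurod6 of cortex and hippocampus, Drd2 of striatum, Lef1 of thalamus) in each library, 1 bar per library, BNLx in blue and SHR in orange. Kcnh3 and Kcns1 are low in BNLx 3 and SHR 1 as Nrgn and Neurod6 are, Scn4b is high in SHR 1 as Drd2 is, and Hcn4 is high in BNLx 3 as Lef1 is.

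With BNLx 3 and SHR 1 both left out, 25 of 66 channel loci (37.9%) were called at an edgeR adjusted p of 0.05, where 28.8% of all loci were. Of these, 19 were higher in SHR (28.8% of the channel loci, against 15.1% of all loci) and 6 were lower. These libraries were left out for their distance from the others, so the spread left among BNLx 1 and 2 and SHR 2 and 3 is small by construction and the p-values are too small. By group the calls were 14 potassium (11 higher), 3 calcium (2 higher), 2 sodium (1 higher) and 6 other (5 higher).

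Trpc5 had the lowest adjusted p among them, with a log2 fold change of 1.3 (standard error 0.10, edgeR adjusted p 0.00174) from 13.2 and 12.4 CPM in BNLx 1 and 2 to 31 and 32.4 CPM in SHR 2 and 3. Kcnh5 (Eag2) had the largest fold change at 1.34 (adjusted p 0.0101), from 7.96 and 5.84 to 20.6 and 15.3 CPM, although SHR 1 stood at 3.18 CPM, below every BNLx library. Cacna1c rose by 0.59 (adjusted p 0.00551), Kcna3 by 0.69 (0.00549), Kcng3 by 0.69 (0.00995), Kcnf1 by 0.72 (0.00302), Kcnd1 by 0.74 (0.0121) and the tandem-pore channel Kcnk9 by 0.46 (0.0124). Scn4b had a log2 fold change of -0.77 (adjusted p 0.00728) and Kcns1 one of -0.70 (0.0133). In the fit of all 6 libraries the value of Scn4b was 0.15 in the opposite direction, and Hcn4 went from -0.62 to 0.62 (adjusted p 0.0426).

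Isoform results moved in the same way. With both libraries left out, 10 of 160 channel isoforms (6.25%) were called, against 2.92% of all isoforms, and isoform usage was called for 16 of 44 loci (36.4%), against 23.0%. The isoforms were those of Scn3b and Kcnt1 already described (STRG.30645.4 and STRG.11975.3), Scn2b STRG.30831.3, and others that included 1 each of Ano3, Cacnb4, Kcnab2, Kcnf1, Kcnj3 and Kcnq3. Kcnj3 STRG.12729.1 had 0 CPM in BNLx 1 and 2 and 13.7 and 11.4 CPM in SHR 2 and 3, with 1.58 CPM in BNLx 3 and 0 in SHR 1, so the strains overlapped over all 6 libraries. Kcnq3 STRG.28636.1, of an M-current subunit, had 61.9 and 54.9 CPM in BNLx 1 and 2 and 176 and 175 CPM in SHR 2 and 3, with 92.3 CPM in BNLx 3 and 26.2 CPM in SHR 1.

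Channel genes were often given further 3′ ends by aptardi. Of the 70 channel loci 30 (42.9%) had at least 1 aptardi isoform, against 17.7% of all loci and 27.7% of loci with a gene name. The 94 aptardi isoforms comprised 43 that shortened and 51 that lengthened their original, and the 54.3% that lengthened were much as in named loci (54.1%), where all loci had 35.4%. The median lengthening was 2406 bases for channels, 1012 for named loci and 682 for all loci. The largest was 9196 bases, and the largest shortening was -12575 bases on the same signed scale.

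Original channel isoforms often had no counts where aptardi had added a longer version. Of 36 original channel isoforms with a longer aptardi partner, 19 had 0 counts in all 6 libraries, while of 28 with shorter partners only, 0 did. The same was not counted over all loci. The share of a locus's counts on aptardi isoforms was highest in each group for Kcna1 at 100%, Scn8a at 85.4% (80.8% to 93.4% over libraries), Hcn3 at 94.4% (92.8% to 96.0%) and, leaving out the joined Cacnb4 locus, Cacna1c at 43.3% (24.0% to 56.5%). The original Kcna1 isoform of 1723 bases was at 0 throughout, and the version 5177 bases longer had 208, 201 and 290.0 CPM in BNLx and 174, 235 and 201 CPM in SHR. Strains overlapped for this isoform, and likewise for the main Scn8a isoform, lengthened by 4354 bases, at 349, 404 and 303 CPM in BNLx and 194, 447 and 422 CPM in SHR.

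Genes that act with these channels showed no call at the gene level either. Of 49 listed accessory and anchoring proteins 21 were named, and their 21 tested loci (Unc80 occupying 2, Lrrc26 being too low to test) had 17 fitted values above 0 and 4 below, a median log2 fold change of 0.18 beside 0.0 for all loci, and 0 calls by edgeR (1.02% of all loci), with 0 at an unadjusted p of 0.05 (10.2% of all loci) and a lowest adjusted p of 0.518. Unc79, a subunit of the NALCN complex in a locus shared with Gm27976, had 98.2 ± 10 CPM (SD, n = 3) in BNLx and 123 ± 16.7 CPM (SD, n = 3) in SHR and a log2 fold change of 0.32 with a standard error of 0.14. Its usage test gave an edgeR adjusted p of 0.0387, a call on the mix of its 7 tested isoforms. Unc80, its partner, was divided between a locus shared with Map2, at 0.43, and one shared with Rpe, at 0.18, neither of which passed the test. With BNLx 3 and SHR 1 left out, 10 of the 21 loci were called, all 10 higher in SHR, where 28.8% of all loci were called and 15.1% were called higher. These p-values are too small for the reason given above.

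Of 32 listed intracellular calcium channels, pumps and entry proteins 7 were named and tested, with 3 fitted values above 0, 4 below, a median of -0.05 and 0 calls by edgeR (1.02% of all loci), while 2 had an unadjusted p under 0.05 (10.2% of all loci). With BNLx 3 and SHR 1 left out 3 of the 7 were called, all higher in SHR, beside the same 28.8% and 15.1% of all loci. The nearest was Mcu, the pore of the mitochondrial calcium uniporter, at 11.8, 11.5 and 10.9 CPM in BNLx and 19.4, 17.7 and 19.2 CPM in SHR. Every SHR library was above every BNLx library, with a log2 fold change of 0.72, a standard error of 0.12 and an edgeR adjusted p of 0.0744. Mcu was chosen after its values were seen.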

How the data were processed

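Expression was measured by paired-end polyA RNA-Seq from 1 ug of RNA per whole brain, on an unstranded library kit, in 3 BNLx and 3 SHR rats. The labels place the libraries on 3 lanes (2 with 3 libraries, 1 with all 6) without saying which shared a lane, so lane could not be modelled. Per the labels and the file headers, the authors trimmed reads with cutadapt, aligned them with HISAT2, assembled transcripts with StringTie 1.3.5 guided by Ensembl 99 on rn6, added 3′ ends with aptardi 1.0.0 and quantified with RSEM. The deposited expected counts are not normalized, and the deposited TPM values were scaled within each library by the authors' RSEM run. Total expected counts ran from 11747048 to 41333078 per library.

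Expected counts were rounded to whole numbers. Loci and isoforms with at least 50 counts in 2 of 3 replicates of a strain entered a quasi-likelihood fit of strain (edgeR 4.0.16, R 4.3.3, TMM), and usage was tested with diffSpliceDGE on that fit. Loci and usage were called at an adjusted p of 0.05 over all features, isoforms and summed transcripts at an unadjusted p of 0.001. CPM at the isoform level use that level's own scaling. DESeq2 1.42.0 and limma 3.58.1 were alternatives, and scripts were tested on simulated data. Replicates are separate rats. The same numbers in both strains were not taken to pair rats. Deviations of rats with the same number correlated at -0.0359, 0.318 and -0.198. With 3 rats per strain these values cannot show whether equal numbers shared a lane or another batch. Genes named were those called, those of the highest level or largest change per group, those with the highest aptardi share and up to 10 of the lowest p with BNLx 3 and SHR 1 left out. Members and lists were chosen with earlier results of these data known. Genes on overlapping opposite strands cannot be told apart in these libraries. A few genes are not reported here.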

Additional observations from a re-analysis of the deposited data

How the results depend on the processing

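The fold changes of 38 named loci and isoforms were recomputed under each alternative, and 418 of these values kept their direction and their side of the threshold, 21 became called in the same direction, 1 lost its call (Scn3b STRG.30645.4 with a replicate block, where the log2 fold change was still 1.66) and 46 changed sign. Among the sign changes, Ano3, Hcn4 and Scn4b were also called without BNLx 3 and SHR 1. The causes were not tested. At the gene level 0 channel loci were called in any fit that left out 1 library, without a filter, with a filter of 10 counts, with DESeq2's size factors or with limma, while DESeq2 called 1 and leaving out BNLx 3 and SHR 1 together called 25. For isoforms DESeq2 called 4 and the fit without both libraries 10, and leaving out 1 library gave 1 to 2. For summed transcripts these counts were 2, 6 and 1 to 3, and for usage 16 without both libraries, 1 with voom weights (Kcnt1) and 0 to 3 with 1 library left out. SHR 1 decided the upper ends, since without it usage was called for Cacna2d1, Kcnt1 and Scn2b (3 loci), isoforms for Scn2b and Scn3b and sums for Cacna2d1 and Scn3b among others, and without BNLx 3 usage was called for Scn3b (1 locus). Without any 1 library Scn3b STRG.30645.4 was called.

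The replicate numbers were not taken to pair rats, and a fit with the number as a block left 0 called loci, 0 isoforms, 0 summed transcripts and 0 loci by usage. Under the replicate block Clcn5 changed sign to 0.027 and Scn4b to -0.16.

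Fold changes near 0 changed sign most often. On log2(TPM + 1) with limma, where all loci shifted by 0.074, Ano10 gave 0.016, Cacna2d2 -0.013, Cacnb3 0.0041, Clcn6 0.034, Kcnmb4 0.0085, Scn2b 0.14 and Scn4b -0.059. Without BNLx 3 and SHR 1, Ano3 gave -0.25, Cacna2d2 -0.0048, Clcn5 0.82, Clcn6 0.19, Hcn4 0.62, Kcna1 0.15, Scn2b 0.052 and Scn4b -0.77. With 1 library left out in turn, the log2 fold change ran from -0.15 to 0.011 for Ano10, -0.076 to 0.69 for Ano3, -0.65 to 0.7 for Cacna2d2, -0.41 to 0.059 for Cacnb3, -0.026 to 0.16 for Clcn4, -0.89 to 0.84 for Clcn5, -0.17 to 0.12 for Clcn6, -0.14 to 0.37 for Hcn3 and -1.04 to 0.84 for Hcn4. It ran from -0.27 to 0.045 for Kcna1, -0.04 to 0.53 for Kcna3, -0.16 to 0.23 for Kcnab2, -0.021 to 0.37 for Kcnk9, -0.41 to 0.19 for Kcnmb4, -0.13 to 0.056 for Scn2b, -0.76 to 0.49 for Scn4b and -0.089 to 0.44 for Scn8a.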
